A study of Mus musculus with 4 samples.

Results

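Histone lysine methyltransferases, which place methyl groups on lysines of histone tails, and the demethylases that remove them were followed across LPS-stimulated mouse macrophages with and without MB-3. Members were the genes of the deposited table whose symbols begin with the family names Kdm, Kmt2, Kmt5, Setd1 to Setd8, Ezh, Suv39h, Ehmt or Smyd and that had at least 10 counts summed over the 4 libraries. Of 45 symbols that matched, 42 qualified among 34745 genes in the table, 25 of them methyltransferases and 17 demethylases. The 3 that did not qualify were Kdm4d with 1 count, and Kdm4dl and the antisense gene Kdm6bos with 0 counts.

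Thioglycolate-elicited peritoneal macrophages came from wildtype C57BL/6 mice and were cultured as adherent cells. The 2 DMSO libraries came from cells given the solvent DMSO and then LPS at 100 ng/ml for 4 hours. The 2 MB-3 libraries came from cells given MB-3 at 50 µM before the same LPS. MB-3 is a butyrolactone compound known to inhibit GCN5 (Kat2a), a histone acetyltransferase, and LPS is a bacterial cell wall component sensed by Toll-like receptor 4. All groups had LPS, so no value here compares stimulated with resting cells. Bone marrow-derived macrophages are named in the title of the series, but every sample is labelled as peritoneal macrophages, which is taken as given. Elicited macrophages grown by adherence can keep other cells of the cavity, and the labels do not say whether replicates came from separate animals or cultures. Each p-value therefore reflects how far these libraries spread, and that spread may be technical.

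Methylation of histone lysines is read by residue. Methylation of H3K4 marks promoters and enhancers, H3K36 methylation marks transcribed gene bodies, H3K9 and H3K27 methylation are associated with silencing, and H4K20 methylation with chromatin compaction and the cell cycle. The methyltransferases carry a SET domain and use S-adenosylmethionine, and most demethylases carry a JmjC domain that needs iron, oxygen and 2-oxoglutarate, while Kdm1a and Kdm1b use a flavin. In macrophages Kdm6b, also called JMJD3, is known as a gene that LPS induces through NF-κB.

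Totals were 15598531 to 21320618 counts per library, of which the members took 0.0834% and 0.0843% with DMSO and 0.0901% and 0.0962% with MB-3. The macrophage markers summed to 24346 and 24917 CPM (counts scaled to a common library total, with TMM factors) with DMSO and to 31035 and 30904 CPM with MB-3. Most of each sum was Lyz2, at 21544.5 and 22115.2 CPM with DMSO and 28287 and 28279.3 CPM with MB-3. The rise of the sum is thus mainly that of Lyz2, and single markers moved either way with the treatment. Of 7 rows, 4 were higher (Lyz2 0.37, Csf1r 0.69, Cd68 0.34 and 1 of 2 rows named Itgam, 1.78, on the log2 scale), Cd14 was lower (-0.98), and Adgre1 (0.08) and the other Itgam row (-1.18, with 2 counts in MB-3 replicate 1) did not pass. The part of this shift in the changes of the enzymes was not tested. Of 5 neutrophil markers, Ly6g and Elane were at 0 counts, and S100a8 was at 463 and 350 counts with DMSO and 217 and 168 counts with MB-3 and was lower (-1.02), and the summed list was at 21.6 and 22.2 CPM with DMSO and 12.3 and 9.92 CPM with MB-3. Of 3 eosinophil markers, Epx and Prg2 were at 0 counts and Siglecf at 101 to 145 counts. Of 3 dendritic cell markers, Xcr1 was at 0 counts and Zbtb46 at 39 to 73 counts. The summed level of 3 fibroblast markers was 45.6 and 92.7 CPM with DMSO and 61.4 and 119 CPM with MB-3, higher in replicate 2 of both groups. The summed B cell, T cell and mast cell markers stayed at or under 2.07 CPM in each library. In bulk samples, fewer cells of a type and less RNA per cell cannot be told apart.

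**Figure D1:**
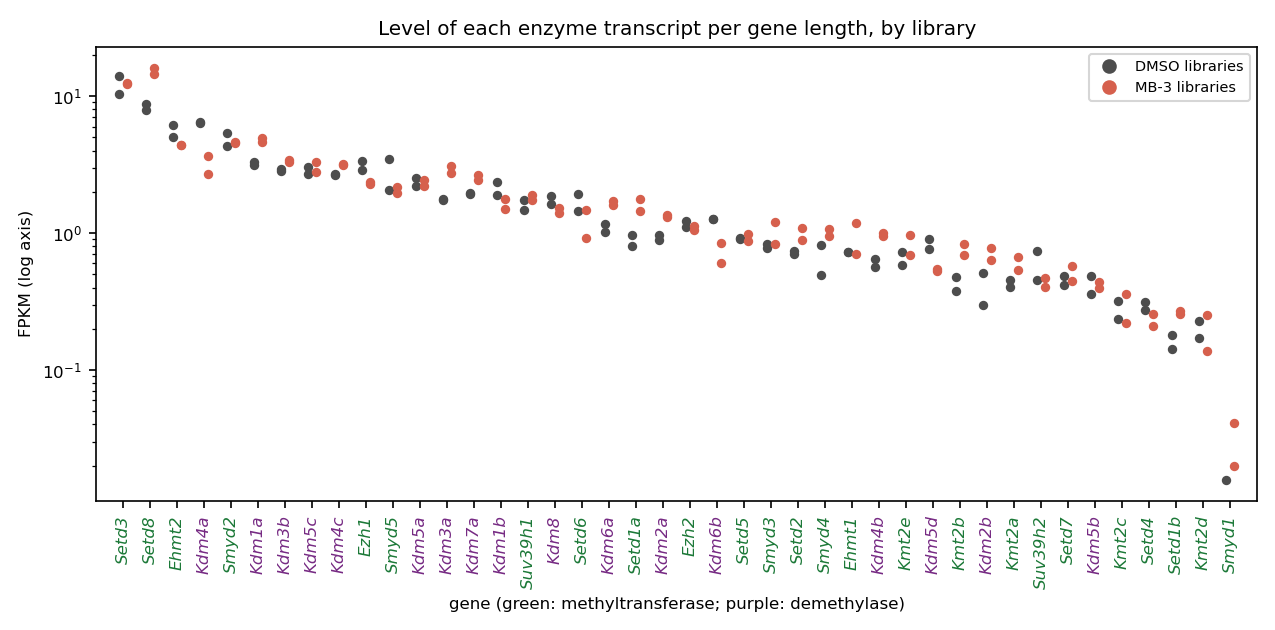
FPKM of each enzyme transcript in the 2 DMSO and 2 MB-3 libraries, on a log axis, with genes ordered by their mean; green names are methyltransferases, purple names are demethylases, and a value of 0 (Smyd1 in a DMSO library) is not drawn. Setd3 and Setd8 stand highest and Smyd1 lowest.

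Per gene length, the enzymes spread over a wide range of low to moderate levels, as the plot of FPKM by library shows (FPKM is the count per kilobase of gene, scaled to the library total). Setd3, a SET domain enzyme best known for methylating a histidine of actin rather than a histone, had the highest mean level, at 10.4 and 14.0 FPKM with DMSO and 12.4 and 12.3 FPKM with MB-3. Setd8, listed under the older symbol of Kmt5a and the sole enzyme that places the first methyl group on H4K20, came next with a mean of 11.8 FPKM. These groups overlapped for Setd3 and were apart for Setd8. Ehmt2, the H3K9 methyltransferase G9a, followed with 6.12 and 5.02 FPKM with DMSO and 4.38 and 4.37 FPKM with MB-3. Kdm4a had a mean of 4.82 FPKM and Smyd2, which methylates p53 and other proteins, of 4.71 FPKM. Over the 4 libraries Kdm4a ran from 2.70 to 6.52 FPKM and Smyd2 from 4.31 to 5.37 FPKM, so these neighbours in the order overlap. The mean level was under 1 FPKM for 20 of the 42 members, among them Kmt2a, Kmt2b, Kmt2c and Kmt2d, the large MLL-type H3K4 methyltransferases. At the low end stood Smyd1, a gene of heart and skeletal muscle, with 0 and 2 counts with DMSO and 3 and 6 counts with MB-3, which was too low to be tested.

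Of the 41 members tested, 10 rose and 4 fell with MB-3 (quasi-likelihood test in edgeR, Benjamini-Hochberg adjusted over 11841 genes, adjusted p under 0.05). That is 34.1% of the members, beside 37.1% of all genes tested, a share near the background in this test. By direction in the edgeR test, 16.9% of all tested genes were higher and 20.2% lower. Fewer members passed with limma on log2 FPKM plus 0.01, 5 higher and 2 lower. In that setting 1643 of all tested genes were higher and 2481 lower. Groups were fully apart for 29 of the 41 members, beside 70.8% of all tested genes. The sizes were moderate: log2 fold changes ran from -0.97 to 0.92 and 0 of 41 members reached 1 on the log2 scale in either direction, which 17.9% of all tested genes did, with or without a call. The median absolute log2 fold change was 0.39 for the members and 0.39 for all tested genes.

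**Figure D2:**
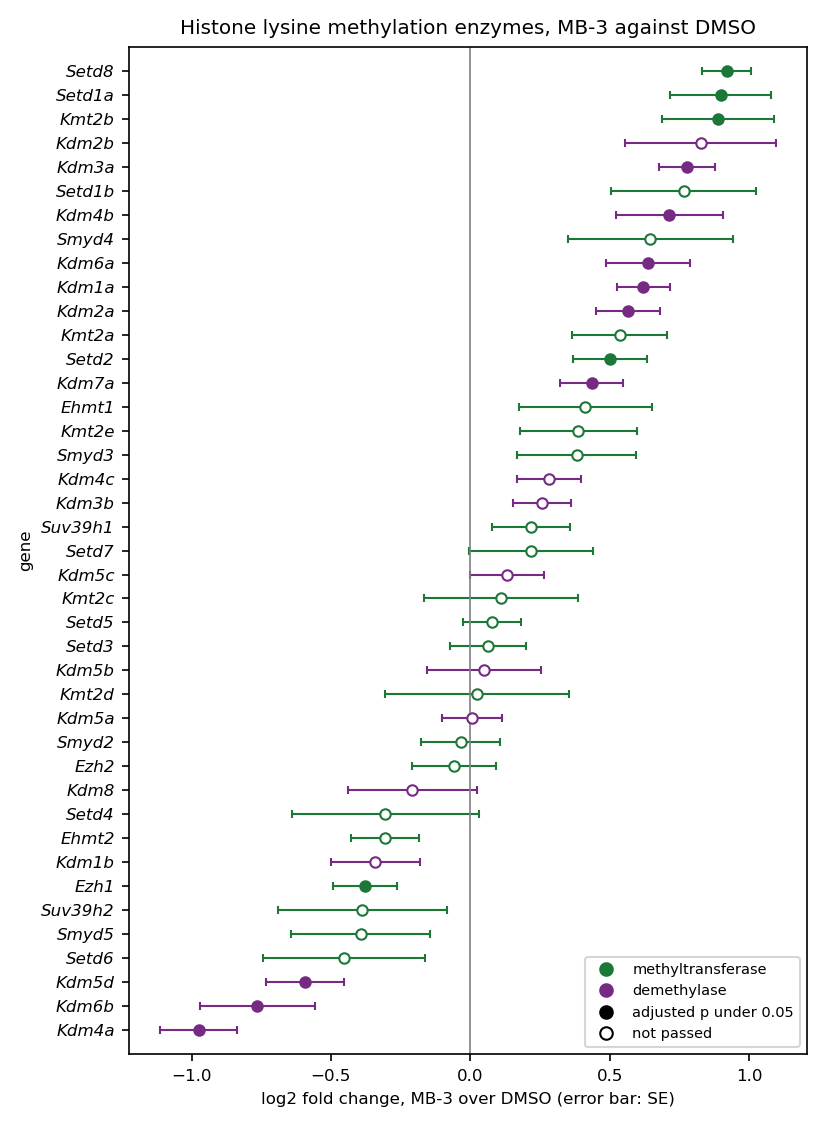
Log2 fold change of MB-3 over DMSO for the 41 tested members, with error bars of 1 SE from edgeR; filled points passed an adjusted p of 0.05 and open points did not. Values run from -0.97 for Kdm4a to 0.92 for Setd8, and 10 filled points lie right of 0 and 4 left of it.

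Calls fell on both kinds of enzyme. Of 17 demethylases, 6 rose and 3 fell, and of 24 tested methyltransferases, 4 rose and 1 fell, which are 52.9% and 20.8% beside 37.1% of all tested genes. Median log2 fold changes were 0.26 for demethylases and 0.16 for methyltransferases, beside -0.01 for all tested genes. The difference between the shares was not tested. The order of these shares rested on single libraries, since it changed without MB-3 replicate 1 and without DMSO replicate 2. Such fits leave 1 library in a group, and fewer of all tested genes were called higher in them.

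**Figure D3:**
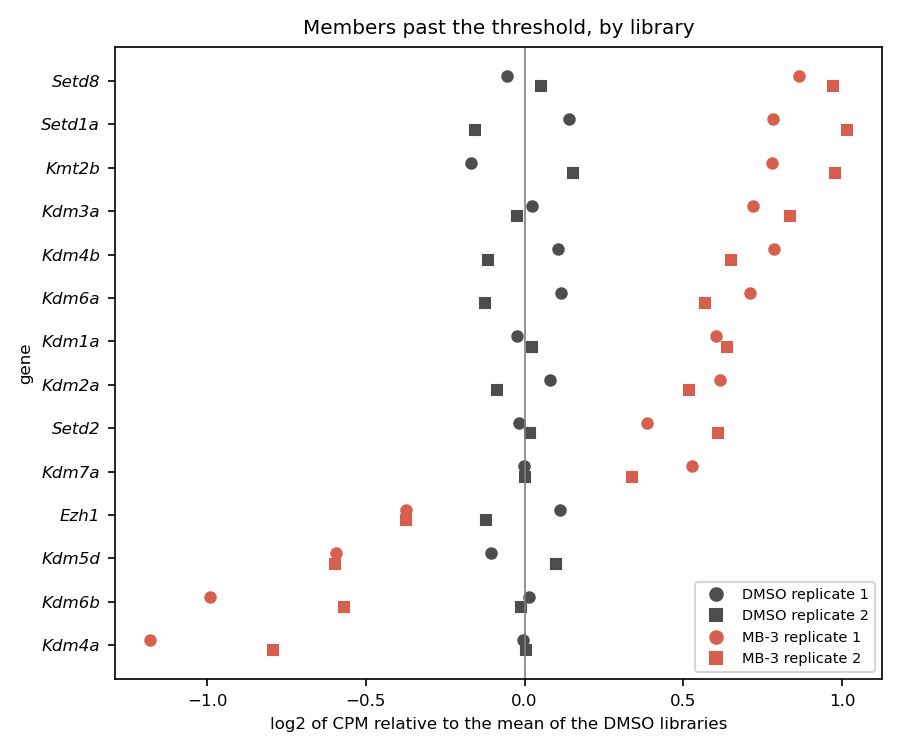
Log2 of the CPM of each library relative to the mean of both DMSO libraries, for the 14 members past the threshold; circles are replicate 1 and squares replicate 2. In each gene both MB-3 libraries lie on the same side of both DMSO libraries, with Kdm4a and Kdm6b farthest to the left.

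Setd8 had the largest rise of a member, and the H4K20 class held no other member. It was at 78.0 and 84.0 CPM with DMSO and 147 and 159 CPM with MB-3, a 1.89-fold higher mean (log2 fold change 0.92, SE 0.087, edgeR adjusted p = 5.11e-04). Its MB-3 libraries were well above both DMSO libraries. The gene lies on chromosome 5 from 124439930 to 124462308 as the table gives it, and the submitters' processing notes name mm10 and GRCm38.p4. With its level near 15.3 ± 1.24 FPKM (SD, n = 2), it was the member with the highest FPKM in the MB-3 group, where Setd3 had 12.4 ± 0.131 FPKM. The protein is known to accumulate around mitosis; of 6 proliferation genes, Mki67 was lower (-3.03 on the log2 scale) and Top2a, Ccnb1, Cdk1, Mcm2 and Mcm5 did not pass, with values from -0.20 to 0.45, and their part in the result was not tested. The enzymes that add further methyl groups at H4K20 carry the older symbols Suv420h1 and Suv420h2 in the table and are no members; they were at 0.25 and -0.58 on the log2 scale and did not pass.

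The promoters of Setd8, Kdm3a and Kdm4a are shown because these genes hold the largest rise, the largest demethylase rise and the largest fall among members that passed in all 14 alternative settings. The table holds 3 RefSeq starts each for Setd8 and Kdm3a and 1 for Kdm4a, and the one nearest the gene's 5′ end in the deposited table was taken. Each sequence is the 250 bases before that start, 5′ to 3′ on the gene's strand, from RefSeq on GRCm38.p6, with capitals marking CCAAT on either strand (ATTGG on the printed strand for a match on the other).
Setd8 (Kmt5a), chr5:124439680-124439929, plus strand: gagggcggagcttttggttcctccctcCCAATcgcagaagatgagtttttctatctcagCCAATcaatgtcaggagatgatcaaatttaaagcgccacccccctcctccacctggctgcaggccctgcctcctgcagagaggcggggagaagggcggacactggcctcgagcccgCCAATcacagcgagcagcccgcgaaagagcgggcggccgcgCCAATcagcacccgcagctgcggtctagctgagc
Kdm3a, chr6:71632918-71633167, minus strand: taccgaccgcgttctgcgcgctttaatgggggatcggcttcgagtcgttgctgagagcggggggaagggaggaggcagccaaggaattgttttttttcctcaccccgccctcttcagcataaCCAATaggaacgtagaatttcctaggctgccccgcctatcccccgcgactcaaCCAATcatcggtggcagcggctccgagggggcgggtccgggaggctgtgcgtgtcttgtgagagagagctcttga
Kdm4a, chr4:118180044-118180293, minus strand: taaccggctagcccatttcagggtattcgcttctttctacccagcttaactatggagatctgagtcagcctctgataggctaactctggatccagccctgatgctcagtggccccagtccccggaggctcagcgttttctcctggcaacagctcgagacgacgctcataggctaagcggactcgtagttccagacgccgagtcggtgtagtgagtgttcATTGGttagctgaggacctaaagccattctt

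CCAAT is a promoter element bound by NF-Y. It occurred 4 times in the Setd8 window, 2 times in that of Kdm3a and 1 time in that of Kdm4a, so a match was present in genes that moved either way; the counts hold for the windows printed. Of 42 members, 33 had a RefSeq promoter in the table used; Kdm6b, Kdm2a, Kdm5a, Kdm3b, Kdm4b, Kmt2b, Setd1b, Kmt2e and Smyd3 did not and are in none of these counts. CCAAT was in 13 of the 33, or 39.4%, beside 33.8% of 32851 mouse promoters and 35.1% of those of tested genes. The GC box GGGCGG was in 21 of 33, or 63.6%, beside 32.7% of all promoters and 57.7% of those of tested genes. A κB site was in 0 of these 33, which do not include Kdm6b (1.41% of all promoters and 1.58% of those of tested genes). The antioxidant response element core TGACNNNGC was in 3, or 9.09% (10.2% and 11.8%). The hypoxia response element core ACGTG was in 7, or 21.2%, beside 16.6% of all promoters and 21.7% of those of tested genes. ACGTG lies within the E-box CACGTG, which 2 members held, or 6.06% (6.02% and 8.40%). All motifs were searched on both strands. The median GC content of the members' windows was 62.0%, beside 59.6% for tested genes, and their ratio of observed to expected CpG was 0.842 beside 0.727. A match of letters is a description and no evidence of binding.

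Among 7 H3K4 methyltransferases, 2 rose, or 28.6% beside 37.1% of all tested genes. The other 5 had values from 0.02 to 0.76 and did not pass, and of these Kmt2d and Kmt2c changed sign in some of the alternatives. Setd1a, the catalytic subunit of a COMPASS complex that places most promoter H3K4 trimethylation, was at 7.69 and 6.26 CPM with DMSO and 12 and 14.1 CPM with MB-3, a 1.87-fold higher mean (log2 fold change 0.90, SE 0.18, edgeR adjusted p = 0.0104). Kmt2b, or MLL2, which acts at promoters, was at 4.66 and 5.82 CPM with DMSO and 8.99 and 10.3 CPM with MB-3 (0.89, SE 0.20, edgeR adjusted p = 0.0159). The groups were apart for both genes. With limma on log2 FPKM plus 0.01 Kmt2b did not pass (adjusted p = 0.0548). Leaving out DMSO replicate 1 (adjusted p = 0.0587) or MB-3 replicate 2 (0.0708) ended the Kmt2b call, with a range of adjusted p from 0.0035 to 0.0708 over 14 alternatives in edgeR, DESeq2 or limma.

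The paralogs of these enzymes stood nearby but did not pass. Setd1b was at 2.33 and 2.88 CPM with DMSO and 4.36 and 4.46 CPM with MB-3 (log2 fold change 0.76, SE 0.26, edgeR adjusted p = 0.0631), so its groups were apart at low counts. Kmt2a, or MLL1, was at 9.13 and 7.95 CPM with DMSO and 11.3 and 13.5 CPM with MB-3 (0.54, SE 0.17, edgeR adjusted p = 0.0512). With the replicate number as a block, Kmt2a passed (edgeR adjusted p = 0.0483), and its adjusted p ran from 0.0372 to 0.209 over the 14 alternatives. Kmt2c and Kmt2d, which act at enhancers, had log2 fold changes of 0.11 and 0.02 with 95% intervals from -0.56 to 0.78 and from -0.77 to 0.82, so neither direction is set. Their MB-3 libraries differed from each other, at 5.86 and 9.20 CPM for Kmt2c and 3.41 and 5.97 CPM for Kmt2d. Setd7, which places a single methyl group on H3K4 and on other proteins, had a value of 0.22 (SE 0.22).

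Of the 6 demethylases of H3K4, 1 rose and 1 fell, or 33.3% beside 37.1% of all tested genes. Kdm1a, or LSD1, the flavin-dependent demethylase of corepressor complexes, was at 24.3 and 25.1 CPM with DMSO and 37.5 and 38.5 CPM with MB-3, a 1.54-fold higher mean (log2 fold change 0.62, SE 0.095, edgeR adjusted p = 0.00358). Here the spread within each group was under 1 CPM. Its paralog Kdm1b was at 20.7 and 16.4 CPM with DMSO and 13.8 and 15.6 CPM with MB-3 (-0.34, SE 0.16) and did not pass, and its exons overlap those of the more abundant antisense gene Dek. Kdm5a, Kdm5b and Kdm5c, JmjC demethylases of trimethylated H3K4, did not pass and had log2 fold changes of 0.01, 0.05 and 0.13.

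Kdm5d, the Y-linked member of the same subfamily, was at 15.2 and 17.5 CPM with DMSO and at 10.8 CPM in each MB-3 library (log2 fold change -0.59, SE 0.14, edgeR adjusted p = 0.0190). It did not pass with limma on log2 FPKM plus 0.1, 0.01 or 1. Its groups did not overlap, and it fell without a call for the other Y-linked genes tested. Eif2s3y, Ddx3y and Uty had log2 fold changes of -0.19, -0.07 and 0.05 and overlapping groups, and Xist was at 0 counts in all 4 libraries. Leaving out DMSO replicate 2 (adjusted p = 0.0867), MB-3 replicate 1 (0.0690) or MB-3 replicate 2 (0.0682) ended the Kdm5d call, and the adjusted p ran from 0.00826 to 0.0867 over 14 alternatives in edgeR, DESeq2 or limma.

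For H3K9, counts are read beside 37.1% of all tested genes, and the difference between the classes was not tested. Of 6 demethylases, 3 rose and 1 fell, and 0 of the 4 methyltransferases passed in the same edgeR test (1 at an unadjusted p under 0.05, and 0 with DESeq2). Kdm3a, which removes the first and second methyl groups from H3K9 and is a known HIF-1 target, was at 23.0 and 22.2 CPM with DMSO and 37.2 and 40.3 CPM with MB-3, a 1.72-fold higher mean (log2 fold change 0.78, SE 0.10, edgeR adjusted p = 0.00185). Kdm3b, its closest paralog, was at 20.2 and 20.3 CPM with DMSO and 24.3 and 24.1 CPM with MB-3 (0.26, SE 0.10, edgeR adjusted p = 0.1004). Its groups were apart by more than their spread, but the value did not pass. Kdm7a, a PHD and JmjC demethylase of dimethylated H3K9 and H3K27, was at 21.6 and 21.7 CPM with DMSO and 31.2 and 27.4 CPM with MB-3 (0.44, SE 0.11, edgeR adjusted p = 0.0263). It did not pass with limma on log2 FPKM plus 0.1, 0.01 or 1. Without DMSO replicate 2 or MB-3 replicate 1 the Kdm7a call was lost (adjusted p = 0.0554 and 0.135, in a range from 0.0161 to 0.135 over the alternatives in edgeR, DESeq2 or limma).

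The Kdm4 subfamily, JmjC enzymes that act on trimethylated H3K9 and H3K36, split. Kdm4a, the most abundant demethylase transcript per length with DMSO, was at 58.1 and 58.4 CPM with DMSO and 25.7 and 33.6 CPM with MB-3, a 1.96-fold lower mean (log2 fold change -0.97, SE 0.14, edgeR adjusted p = 0.00271). It was the largest fall of a member and came from the locus on chromosome 4 from 118136957 to 118180043. Kdm4b, another gene known to respond to hypoxia, was at 5.54 and 4.76 CPM with DMSO and 8.88 and 8.08 CPM with MB-3 (0.71, SE 0.19, edgeR adjusted p = 0.0292). On all 4 libraries it did not pass with DESeq2 (adjusted p = 0.0539) or with limma on log2 FPKM plus 0.01 (adjusted p = 0.0525). Kdm4b no longer passed when DMSO replicate 2 (adjusted p = 0.103), MB-3 replicate 1 (0.117) or MB-3 replicate 2 (0.0633) was left out, in a range from 0.0168 to 0.117 over the alternatives in edgeR, DESeq2 or limma. Kdm4c was at 16.9 and 16.4 CPM with DMSO and 20.9 and 19.6 CPM with MB-3 (0.28, SE 0.12) and did not pass.

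Of the H3K9 methyltransferases, Ehmt2 was at 63.5 and 51.3 CPM with DMSO and 47.4 and 45.5 CPM with MB-3 (log2 fold change -0.31, SE 0.12, edgeR adjusted p = 0.0953). It passed with the replicate number as a block (edgeR adjusted p = 0.0406) and without DMSO replicate 2 (0.0241), in a range from 0.0241 to 0.585 over the 14 alternatives. Its partner Ehmt1, or GLP, was at 10.6 and 10.5 CPM with DMSO and 10.7 and 17.3 CPM with MB-3, where a single library is high (0.41, SE 0.24), and without MB-3 replicate 1 it passed at 0.72 (edgeR adjusted p = 0.0289, in a range to 0.938). Suv39h1 and Suv39h2, which trimethylate H3K9 in heterochromatin, had values of 0.22 (SE 0.14) and -0.39 (SE 0.30) and did not pass.

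Kdm6a and Kdm6b, the demethylases counted under H3K27, moved in opposite directions. Kdm7a, which also acts on H3K27, was counted under H3K9. Kdm6b was at 9.18 and 9.02 CPM with DMSO and 4.58 and 6.13 CPM with MB-3, a 1.70-fold lower mean (log2 fold change -0.76, SE 0.21, edgeR adjusted p = 0.0306). Kdm6a, or UTX, the X-linked paralog, was at 10.9 and 9.20 CPM with DMSO and 16.4 and 14.9 CPM with MB-3, a 1.56-fold higher mean (0.64, SE 0.15, edgeR adjusted p = 0.0191). The groups did not overlap for either gene. With DESeq2 on all 4 libraries Kdm6b did not pass (adjusted p = 0.0552). Per length, Kdm6a stood at 0.925 and 0.798 times the level of Kdm6b with DMSO and at 2.80 and 1.90 times with MB-3. The order of the pair thus changed on the FPKM scale only: in CPM, Kdm6a was above Kdm6b in every library. Kdm6b no longer passed when DMSO replicate 1 (adjusted p = 0.122), DMSO replicate 2 (0.0828) or MB-3 replicate 1 (0.115) was left out, and its adjusted p ran from 0.0118 to 0.122 over the alternatives in edgeR, DESeq2 or limma. The Kdm6a call was lost without DMSO replicate 2 (0.0621) or MB-3 replicate 1 (0.0852), in a range from 0.0075 to 0.0852.

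Ezh1 and Ezh2 are the alternative catalytic subunits of the PRC2 complex, which methylates H3K27. Ezh1, the form typical of non-dividing cells, was at 37.0 and 31.5 CPM with DMSO and at 26.4 CPM in each MB-3 library (log2 fold change -0.38, SE 0.11, edgeR adjusted p = 0.0447). This call was lost in 8 of 14 alternatives, among them without DMSO replicate 1 (-0.21, adjusted p = 0.287), MB-3 replicate 1 (0.143) or MB-3 replicate 2 (0.133), with a range from 0.0273 to 0.287 in edgeR, DESeq2 or limma. Ezh2, the form typical of dividing cells, was at 11.04 and 9.83 CPM with DMSO and 9.94 and 10.1 CPM with MB-3, so the groups overlapped (-0.06, 95% interval from -0.42 to 0.31). Ezh1 exceeded Ezh2 per length in every library, by 2.60 to 2.72 times with DMSO and 2.12 to 2.16 times with MB-3.

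Each enzyme was counted under a single residue, and those under H3K36 were Setd2, Kdm2a, Kdm2b and Kdm8. The Kdm4 enzymes, which also act on H3K36, were counted under H3K9 and are described there. Setd2, the enzyme of H3K36 trimethylation in gene bodies, was at 14.1 and 14.5 CPM with DMSO and 18.6 and 21.8 CPM with MB-3 (log2 fold change 0.50, SE 0.13, edgeR adjusted p = 0.0275). Kdm2a, a CpG-binding demethylase of dimethylated H3K36, was at 21.2 and 18.9 CPM with DMSO and 30.8 and 28.8 CPM with MB-3, a 1.48-fold higher mean (0.57, SE 0.11, edgeR adjusted p = 0.0105). The groups were apart for both. Neither passed with limma on log2 FPKM plus 0.1 or 0.01, and Setd2 did not pass with limma on log2 FPKM plus 1 either. Setd2 no longer passed when DMSO replicate 1 (adjusted p = 0.0659), DMSO replicate 2 (0.0614) or MB-3 replicate 2 (0.134) was left out, in a range from 0.0165 to 0.145. Kdm2a no longer passed when MB-3 replicate 1 was left out (0.0572), in a range from 0.00338 to 0.0660, over alternatives in edgeR, DESeq2 or limma.

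Kdm2b, which also recruits a variant Polycomb complex to CpG islands, was at 9.55 and 5.45 CPM with DMSO and 12.3 and 14.6 CPM with MB-3 (log2 fold change 0.83, SE 0.27, edgeR adjusted p = 0.0554). Its DMSO libraries differ from each other, and without DMSO replicate 1 the value was 1.35 (edgeR adjusted p = 0.00606, in a range to 0.177). It also passed with the replicate number as a block (edgeR adjusted p = 0.0284). Its exons overlap those of the antisense gene Rnf34, which had 5470 counts over the 4 libraries against 774 for Kdm2b. Rnf34 had 2061 and 1453 counts with DMSO and 1005 and 951 counts with MB-3, and its part in the result was not tested. Kdm8, a JmjC protein with other reported substrates, had a value of -0.21 (SE 0.23) and did not pass.

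The remaining methyltransferases have debated histone activity or other substrates. Of these, 0 of 9 tested passed in the edgeR test, beside 37.1% of all tested genes, a difference that was not tested. At an unadjusted p under 0.05 in edgeR 0 passed as well, and 0 with DESeq2. Their log2 fold changes ran from -0.45 for Setd6, which methylates the NF-κB subunit RelA, to 0.65 for Smyd4. Smyd5 was at 29.0 and 17.0 CPM with DMSO and 18.8 and 16.4 CPM with MB-3, so a single DMSO library stood apart, and its value of -0.39 became 0.10 without DMSO replicate 1 and -0.71 without DMSO replicate 2, where it passed (edgeR adjusted p = 0.0104, in a range to 0.695). Smyd3 passed without MB-3 replicate 2 alone (0.65, edgeR adjusted p = 0.0351, in a range to 0.860) and Smyd4 without DMSO replicate 1 alone (1.14, edgeR adjusted p = 0.0432, in a range to 0.420). Kmt2e, a SET domain protein that binds trimethylated H3K4, had a value of 0.39 (SE 0.21), Setd5 of 0.08 (SE 0.10) and Setd3 of 0.06 (SE 0.14).

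**Figure D4:**
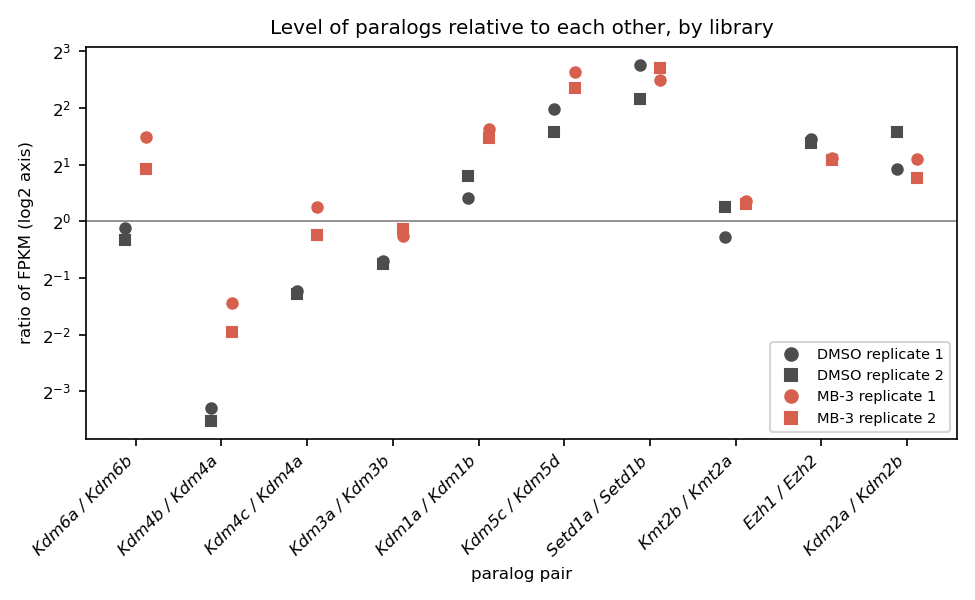
Ratio of the FPKM of paired enzymes in each library, on a log2 axis; black is DMSO, red is MB-3, circles are replicate 1 and squares replicate 2. The ratio of Kdm6a to Kdm6b crosses 1 between the groups, and that of Kdm4b to Kdm4a rises from about 0.1 to 0.257 and 0.369.

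Ratios between paralogs within a library do not depend on scaling to library size. Among 10 pairs, chosen after the values were seen, the ratio was apart between groups in 8 pairs, where the levels of 70.8% of all single tested genes are apart, and overlapped for Setd1a with Setd1b and for Kdm2a with Kdm2b. Kdm4b stood at 0.102 and 0.0870 times the level of Kdm4a with DMSO and at 0.369 and 0.257 times with MB-3, a difference of 1.71 on the log2 scale. For Kdm4c over Kdm4a the values were 0.425 and 0.410 with DMSO and 1.19 and 0.849 with MB-3. Kdm1a was 1.33 and 1.73 times as high as Kdm1b with DMSO and 3.08 and 2.79 times with MB-3. The exact two-sided permutation test over 2 against 2 libraries gives p = 0.333 for each of the 8, the smallest value this design allows, so no pair can pass.

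Summed over members, demethylase transcripts amounted to 34.1 and 33.2 FPKM with DMSO and 34.1 and 35.5 FPKM with MB-3. Methyltransferase transcripts summed to 48.2 and 50.9 FPKM with DMSO and 53.8 and 57.7 FPKM with MB-3. The ratio of demethylase to methyltransferase level was 0.707 and 0.652 with DMSO and 0.634 and 0.615 with MB-3, lower in both MB-3 libraries by 0.12 on the log2 scale. Without Setd8 the ratio was 0.847 and 0.787 with DMSO and 0.866 and 0.855 with MB-3, a choice made after its level was seen. The direction of the summed ratio thus changed when that gene was left out. No other gene was left out in turn, so this does not single out Setd8. Kdm4a, in the demethylase sum, was at 6.37 and 6.52 FPKM with DMSO and 2.70 and 3.68 FPKM with MB-3.

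The gene length behind the FPKM values was long for most members. Its median was 10450 bases, beside 5251 for all tested genes, and 39 of 42 members exceeded the latter. Log2 length and log2 fold change correlated across the 41 tested members with r = 0.24, and with r = 0.06 across all tested genes, as a description over genes of the same 4 libraries. The members lie on 19 chromosomes, with 7 on chromosome 6, 3 on the X and 1 on the Y. Exons of 5 members overlap a gene that holds at least 10% of their counts (Kdm1b, Kdm2b, Kdm5a, Kmt2e and Suv39h2), and none of these is among the 14 that passed.

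Related enzymes that the name rule leaves out were called in 6 of 19 tested cases, 3 higher and 3 lower, or 31.6% beside 37.1% of all tested genes. Not all of them are established enzymes of histone lysine methylation, among them N6amt1 and Jmjd6, and Jmjd6 is 1 of the 3 higher. Setdb2, an H3K9 methyltransferase gene known to be induced by interferon, went far beyond the range of the members, from 91.9 and 78.5 CPM with DMSO to 13.0 and 13.0 CPM with MB-3 (log2 fold change -2.71, SE 0.12, edgeR adjusted p = 2.38e-05). Whsc1l1, or Nsd3, which dimethylates H3K36, was at 91.3 and 92.2 CPM with DMSO and 55.9 and 56.6 CPM with MB-3 (-0.71, SE 0.080, edgeR adjusted p = 0.00107). Of 7 arginine methyltransferases, 2 fell and 0 rose (28.6%), with Carm1 at -1.01 (SE 0.15) and Prmt5 at -0.44 (SE 0.10).

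Counts for subunits that work with the members are read beside 16.9% higher and 20.2% lower, or 37.1% called, of all tested genes. Of 15 core or accessory subunits of the COMPASS complexes, which hold the Setd1 and Kmt2 enzymes, 4 rose and 3 fell (46.7%). Hcfc1 rose by 1.65 (SE 0.15) and Rbbp5 by 0.49 (SE 0.081) on the log2 scale. Of 10 tested partners of Kdm1a, 4 rose and 2 fell (60.0%). Rcor1, the CoREST scaffold that lets LSD1 act on nucleosomes, was at 22.5 and 16.5 CPM with DMSO and 36.8 and 34.8 CPM with MB-3 (0.87, SE 0.16, edgeR adjusted p = 0.00735), and Zmym2 rose by 1.03 (SE 0.11). Of 9 PRC2 subunits, 1 rose (11.1%), Phf1, by 0.92 (SE 0.17), and 8 did not pass, with Rbbp4 at 0.23 (SE 0.072). Of 13 readers of H3K9 or H3K27 methylation, 1 rose and 2 fell (23.1%), with L3mbtl3 at 1.49 (SE 0.19) and Cdyl at -0.86 (SE 0.098).

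A further list held genes that supply or clear the cosubstrates of these enzymes, with the Ahcy-like genes Ahcyl1 and Ahcyl2, which are related by sequence. Of its 12 genes, 4 were called, 2 higher (Idh1 and Ahcyl2) and 2 lower, or 33.3% beside 37.1% of all tested genes. Idh1, which makes 2-oxoglutarate and NADPH in the cytosol, was at 41.0 and 46.5 CPM with DMSO and 231 and 236 CPM with MB-3 (log2 fold change 2.42, SE 0.094, edgeR adjusted p = 1.83e-05). Mat2a, which makes S-adenosylmethionine, was at 225 and 217 CPM with DMSO and 85.0 and 98.8 CPM with MB-3 (-1.27, SE 0.097, edgeR adjusted p = 2.06e-04). Both changes exceed those of each member in size.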

How the data were processed

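RNA of 4 libraries was measured, 2 per group by their titles. The authors deposited whole-number counts and FPKM values per gene, per the file headers; HISAT2, StringTie 1.3.0, edgeR, mm10 and GRCm38.p4 appear in the submitters' processing notes. The kit keeps strand, per the labels' protocols, but how counting used strand or multi-mapped reads is not stated there. FPKM in the deposited table equals the count over library total and gene length within 0.1%. The count test was the quasi-likelihood test of edgeR 4.0.16, run under R 4.3.3 (filterByExpr, TMM, group only) over 11841 genes; SE is the absolute log2 fold change over the square root of F. DESeq2 1.42.0, limma 3.58.1, other filters and scalings and leaving out each library were alternatives. The procedure was tested on simulated data. Fewer genes changed there than were called here, so its error rates in these data were not checked. One count is worth 0.0469 to 0.0641 CPM before TMM factors. Replicates differed beyond sampling noise (chi-square per degree of freedom 13.8 and 11.7). Every member was eligible to be named, with library values for those called, most abundant, sole in their class or paralogs of these, and from each partner list the 2 smallest p. The members, lists and rules were chosen with earlier results of these data known. Exon overlaps came from GENCODE M21 by gene ID, where all 42 members were found.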

Additional observations from a re-analysis of the deposited data

How the results depend on the processing

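Of the 14 called members, Setd8, Setd1a, Kdm3a, Kdm1a and Kdm4a passed in all 14 alternatives, and 7 members that did not pass in the main test passed in at least 1. Members higher and lower numbered 10 and 4 in the main test, 5 and 2 with limma on log2 FPKM plus 0.01, and 2 lower with DESeq2 and with limma on log2 FPKM plus 0.1 or 1. All tested genes higher and lower numbered 1999 and 2392 in the main test and 1643 and 2481 with limma on log2 FPKM plus 0.01. At a pseudocount of 0.1, 7 members were higher and 2 lower, beside 1691 and 2532 of all tested genes. Leaving out 1 library gave 6 to 10 higher and 1 to 4 lower members, 2 to 7 higher and 1 to 2 lower demethylases, 3 to 5 higher and 0 to 3 lower methyltransferases, medians of 0.23 to 0.30 for demethylases and 0.039 to 0.309 for methyltransferases, and 1282 to 1802 higher genes of all tested (1999 in the main test). Demethylases higher numbered 3 and methyltransferases higher 2 with limma on log2 FPKM plus 0.01, and the 1 lower methyltransferase (Ezh1) became 0 with RLE size factors, DESeq2 and limma on log2 FPKM with each pseudocount. With limma on log2 FPKM plus 1 the medians were 0.162 for demethylases and 0.041 for methyltransferases. The cause was not tested.

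With the replicate number as a block, 12 members were higher and 5 lower, 2 methyltransferases were lower, and 2340 and 2706 of all tested genes passed. Nothing in the labels says that a number marks a shared animal or day; deviations of same-numbered libraries correlated across 10932 genes with r = 0.193. Signs changed only for members that did not pass in the main test. For Kdm5a the values were -0.036 with library totals only, -0.031, -0.032 and -0.023 with limma on log2 FPKM plus 0.1, 0.01 and 1, and -0.087 to 0.169 leaving out 1 library. For Kmt2d they were -0.015, -0.035, -0.064 and -0.005 in the same order, -0.017 with the block, and -0.436 to 0.373 leaving out 1 library. Leaving out 1 library gave -0.251 to 0.400 for Kmt2c, -0.095 to 0.264 for Kdm5b (0.000 on log2 FPKM plus 1), -0.131 to 0.124 for Smyd2, -0.127 to 0.078 for Ezh2, -0.076 to 0.284 for Setd3, -0.018 to 0.278 for Kdm5c and -0.712 to 0.10 for Smyd5. The summed demethylase to methyltransferase ratio, -0.121 on the log2 scale, was 0.076 without Setd8. Counts under 5 CPM limit 8 members.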
